A study of Mus musculus with 6 samples.

Results

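The nuclear genes for the proteins of the mitochondrial ribosome were compared between injured hind limb muscle of mice lacking histidine decarboxylase and of wild-type mice. The genes were taken by symbol, as every row of the deposited table whose name starts with Mrpl or Mrps followed by a digit and does not end in -ps. This gave 78 genes of 25572, with 49 Mrpl genes, named for the large subunit, and 29 Mrps genes, named for the small subunit; 0 rows were left out for a -ps ending. All 78 passed the filter on low values, a mean of at least 0.5 FPKM (fragments scaled by gene length and by library depth) over the 6 libraries.

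The 3 HDCKO libraries came from mice labelled Hdc-/-, which lack the enzyme that makes histamine, and the 3 WT libraries from wild-type mice. All 6 mice had hind limb ischaemia (HLI), surgery that cuts the blood supply of a limb, and muscle RNA was taken 3 days later, so both groups are injured tissue and no uninjured library was analysed here. Each library is labelled as a separate mouse. The labels do not name a strain, an age, a sex, the muscle sampled or whether Hdc was deleted in all cells.

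Mitochondria keep a ribosome of their own that makes the few respiratory chain proteins encoded in mitochondrial DNA. Its ribosomal RNAs come from the mitochondrial genome, but its proteins are encoded in the nucleus, made in the cytosol and imported, then built with the RNA into a small subunit, which reads the messenger RNA, and a large subunit, which joins the amino acids. Some of these proteins have relatives in the bacterial ribosome and others are found only in mitochondria. Muscle fibres are rich in mitochondria, and the genes are active in nearly all cell types.

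The libraries differed in much more than these genes. Of 13288 genes tested, 2362 were called higher in HDCKO muscle (17.8%) and 5658 lower (42.6%), and the median log2 change over all genes tested was -0.50. Hdc had 1.22, 2.46 and 2.52 FPKM in HDCKO 1, 2 and 3, against 7.49, 7.72 and 8.17 FPKM in WT 1, 2 and 3, so reads of the targeted gene were fewer but present. All 10 muscle fibre markers rose; they summed to 42034 to 76003 FPKM in HDCKO muscle, against 373 to 1416 FPKM in WT muscle, with only Myh3 at 0 in any library (WT 2) among all markers listed, so the defining markers of the labelled tissue were low in the WT libraries. All 6 neutrophil markers fell (32.3 to 69.5 FPKM in sum in HDCKO, 2409 to 14316 FPKM in WT). So did 4 of 5 markers of dividing cells (0.481 to 58.4 FPKM in HDCKO, 88.0 to 118 FPKM in WT). Of 5 endothelial markers, 4 fell (141 to 215 FPKM in HDCKO, 292 to 433 FPKM in WT). Only 3 of 8 macrophage markers (37.5%) and 2 of 5 fibroblast markers (40.0%) were called lower, below the 42.6% of all genes tested. The macrophage list summed to 283 to 2030 FPKM in HDCKO and 2123 to 2699 FPKM in WT. The fibroblast list summed to 1086 to 1723 FPKM in HDCKO and 2299 to 4280 FPKM in WT. Each sum covers the whole list, called or not. T and B cell markers, of which 0 of 4 were called, summed to 0.152, 51.9 and 128 FPKM in the HDCKO libraries and to 0.468 to 1.21 FPKM in WT. Of the remaining lists, 1 of 5 satellite cell and myoblast genes and 1 of 3 Schwann cell genes rose, 1 of 4 mast cell genes fell, and 0 of 3 adipocyte genes were called. The part of cell content in the results on mitochondrial ribosomal protein genes was not tested. In bulk tissue, fewer cells of a type and less RNA per cell cannot be told apart.

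The stretches of sequence upstream of 5 of the genes are shown because these genes are the extremes of the comparison: Mrpl42 and Mrps36 had the largest increases of the 2 name groups, Mrpl52 and Mrps6 the largest decreases, and Mrps21 was the most abundant Mrps gene. Each run holds the 250 bases before the RefSeq start, 5′ to 3′ on the gene's own strand, in build GRCm38.p6: chr10:95501950-95502199 (minus strand) for Mrpl42, chr13:100744660-100744909 (minus) for Mrps36, chr3:95871515-95871764 (minus) for Mrps21, chr14:54426659-54426908 (plus) for Mrpl52 and chr16:92058086-92058335 (plus) for Mrps6. Capitals mark the motif matches described after them.
Mrpl42: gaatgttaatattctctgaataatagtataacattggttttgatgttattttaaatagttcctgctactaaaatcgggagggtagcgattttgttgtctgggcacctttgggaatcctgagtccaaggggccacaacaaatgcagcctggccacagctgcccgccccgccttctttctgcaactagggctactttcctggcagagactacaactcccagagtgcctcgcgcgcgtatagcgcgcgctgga
Mrps36: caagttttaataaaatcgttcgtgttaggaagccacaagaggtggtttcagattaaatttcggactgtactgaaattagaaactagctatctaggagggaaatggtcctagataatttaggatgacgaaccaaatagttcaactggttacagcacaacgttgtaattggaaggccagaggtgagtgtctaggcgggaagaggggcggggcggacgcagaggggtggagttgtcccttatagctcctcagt
Mrps21: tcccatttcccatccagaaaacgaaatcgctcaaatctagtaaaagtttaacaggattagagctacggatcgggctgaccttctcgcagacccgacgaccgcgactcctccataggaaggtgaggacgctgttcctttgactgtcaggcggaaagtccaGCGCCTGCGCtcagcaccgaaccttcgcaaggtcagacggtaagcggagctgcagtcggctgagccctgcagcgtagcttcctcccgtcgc
Mrpl52: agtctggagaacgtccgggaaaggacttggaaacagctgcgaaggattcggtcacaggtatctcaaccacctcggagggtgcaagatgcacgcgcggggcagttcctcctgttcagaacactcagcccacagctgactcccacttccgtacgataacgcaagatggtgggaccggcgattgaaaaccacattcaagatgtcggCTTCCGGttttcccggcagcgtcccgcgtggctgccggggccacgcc
Mrps6: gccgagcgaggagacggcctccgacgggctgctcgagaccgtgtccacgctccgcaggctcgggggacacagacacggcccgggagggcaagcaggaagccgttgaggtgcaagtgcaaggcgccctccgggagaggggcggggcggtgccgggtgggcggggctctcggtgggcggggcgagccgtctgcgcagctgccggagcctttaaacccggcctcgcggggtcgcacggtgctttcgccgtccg
A search on both strands for the letters GCGCA, any base, then GCGC (bound by NRF1), CCGGAAG (bound by ETS factors such as GABP) and AAGATGGCG (bound by YY1), 3 factors known for mitochondrial genes, covered these 250 bases and the 50 bases after the start. The capitals in Mrps21 are an NRF1 match on the opposite strand and those in Mrpl52 an ETS match on the opposite strand; Mrpl42 had 1 match, to YY1, 28 to 36 bases after the start, and Mrps36 and Mrps6 had none. Mrps21 also had an ETS match just after the start, and Mrpl52 had another ETS match there. Matches to different motifs did not overlap each other, and a match is a stretch of letters, not a measured site.

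Promoters were in the RefSeq table for 69 of the 78 genes (75 promoters). An NRF1 match was present in 13 of the 69 genes (18.8%), an ETS match in 26 (37.7%) and a YY1 match in 8 (11.6%), against 5.19%, 9.93% and 1.64% of the 27025 genes of the whole table. At least 1 of the 3 was present in 41 genes (59.4%), against 15.1% of the whole table. The share was similar for cytosolic ribosomal protein genes (53.4%) and for nuclear respiratory chain genes (50.7%). The mitochondrial ribosomal promoters had a median GC content of 58.4% over the 250 bases, against 52.4% in the whole table, and the shares are not corrected for it. Among genes called higher in HDCKO muscle, 9 of 31 with a promoter had the NRF1 letters (29.0%) and 9 the ETS letters (29.0%), and among genes not called, 3 of 33 had NRF1 (9.09%) and 15 had ETS (45.5%). These shares were computed after the calls were known and are given as a description.

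More mitochondrial ribosomal protein genes rose in HDCKO muscle than fell, by small amounts, and the Mrpl and Mrps genes had nearly equal medians. Of the 78, 35 were called higher (44.9%, against 17.8% of all genes tested), 5 were called lower (6.41%, against 42.6%) and 38 were not called; the 40 calls in either direction compare with 60.4% of all genes tested. A call is an adjusted p under 0.05 in limma over all 13288 genes, on log2(FPKM + 0.5), a scale that understates the change of low genes. Among Mrpl genes 22 of 49 were higher and 4 lower, with a median log2 change of 0.34, and among Mrps genes 13 of 29 were higher and 1 lower, with a median of 0.36; the median of all genes tested was -0.50. The Mrpl median minus the Mrps median was -0.02. The mean log2 level of Mrpl genes minus that of Mrps genes was -0.0315 in HDCKO and -0.0124 in WT, a difference of -0.0192. Between libraries of a group this measure varied with an SD of 0.0278. That SD is the spread of single libraries, not the error of the difference between groups.

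The changes ran from -1.41 for Mrpl52 to 1.74 for Mrpl42 among Mrpl genes and from -0.82 for Mrps6 to 1.42 for Mrps36 among Mrps genes, both on the log2 scale. As deposited, changes past 1 in size were few: 5 called genes were above 1 (11.6% of all genes tested were called higher by that much) and 1 was below -1 (26.0% of all genes tested). Without HDCKO 3, 9 were above 1 (12.2% of all genes tested), and without HDCKO 1, 3 were (11.8%). With median-of-ratios scaling 31 were above 1 (17.3% of all genes tested) and 0 below -1 (13.6%), and with quantile normalization 21 (15.4%) and 1 (16.2%). With each library scaled to the same sum, 4 were above 1 (10.9%) and 1 below -1 (29.3%). Another 24 genes were within 0.2 of 0. The 3 HDCKO libraries were all above the 3 WT libraries for 48 genes (21.2% of all genes tested did so) and all below for 8 (51.4%), and the groups overlapped for 22. All 40 called genes had groups that did not overlap. In the order of log2 changes over all genes tested, 73 of the 78 stood above the median and 46 above the upper quartile.

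**Figure D1:**
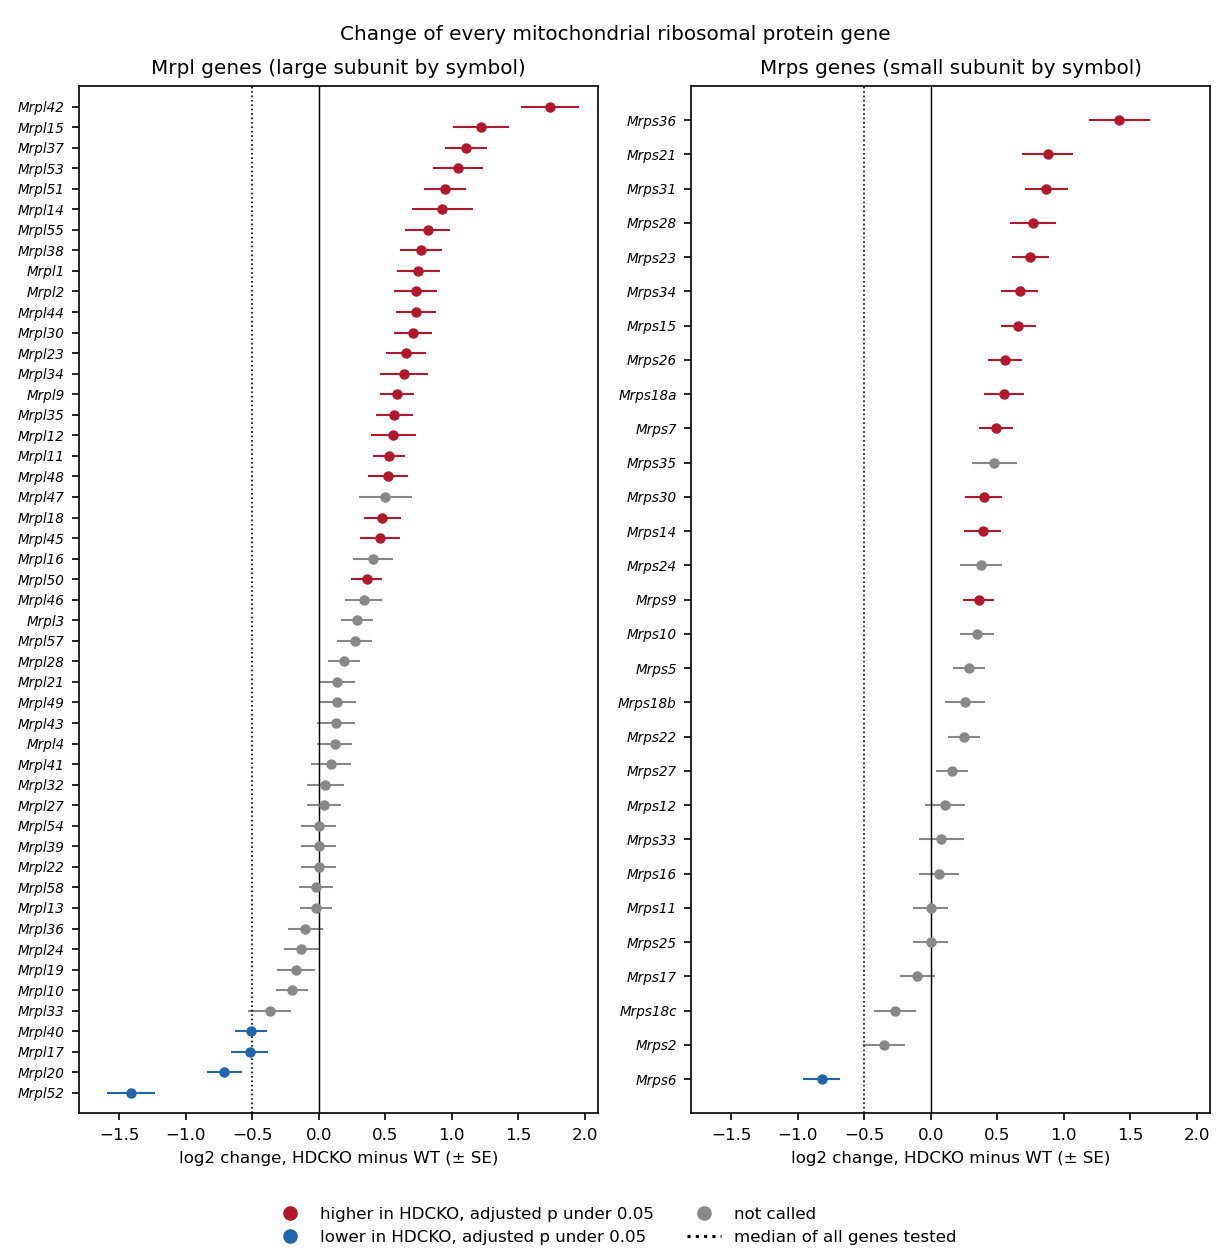
Change of each of the 49 Mrpl genes (left) and 29 Mrps genes (right) on the log2 scale, HDCKO minus WT, with points for the limma estimate and bars for its SE (3 libraries a group); the dotted line is the median of all genes tested, -0.50. Red points are the 35 genes called higher, blue points the 5 called lower, and 73 of 78 points lie right of the dotted line.

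The counts moved with single libraries and with the scaling, while the medians kept their sign in all 17 settings run. Without HDCKO 2, 14 genes (17.9%) were called higher, against 13.2% of all genes tested, a small gap, and 3 lower (3.85%, against 18.9%). Without WT 1, 21 genes (26.9%) were higher, against 13.9% of all genes tested, and 3 lower, against 22.4%; without WT 3, 22 (28.2%) were higher, against 14.1%, and 3 lower, against 21.1%. Without HDCKO 3 the counts were 43 and 7 (18.6% and 55.1% of all genes tested), with 3 of the lower calls in Mrps genes. Of the Mrpl genes, 10, 14 and 14 were called higher without HDCKO 2, WT 1 and WT 3, and 2 lower in each case. Of the Mrps genes, 4 were called higher without HDCKO 2, 7 without WT 1 and 8 without WT 2 or WT 3. Median-of-ratios scaling, which moved the median of all genes tested to -0.01, gave 58 genes higher (27.0% of all genes tested) and 1 lower (25.2%), and quantile normalization gave 56 (23.6%) and 1 (30.3%). Higher genes made up 87.5% of called mitochondrial ribosomal genes as deposited and 98.3% with median-of-ratios scaling, and 29.5% and 51.7% of all called genes. Set against the median of all genes, the Mrpl median was 0.84 higher as deposited and 0.89 higher with median-of-ratios scaling, and the Mrps median 0.86 and 0.90 higher. Each library was also scaled to the same sum after muscle fibre and mitochondrially encoded genes were taken out. This gave 52 genes called higher (23.7% of all genes tested) and 3 lower (27.4%). With all genes kept in that sum, 27 were called higher (16.0% of all genes tested) and 6 lower (45.6%). A call of higher was kept in all 17 settings by 14 of the 78 genes, namely Mrpl1, Mrpl15, Mrpl30, Mrpl37, Mrpl38, Mrpl42, Mrpl44, Mrpl51, Mrpl53, Mrpl55, Mrps23, Mrps28, Mrps31 and Mrps36, and Mrpl52 alone kept a call of lower.

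**Figure D2:**
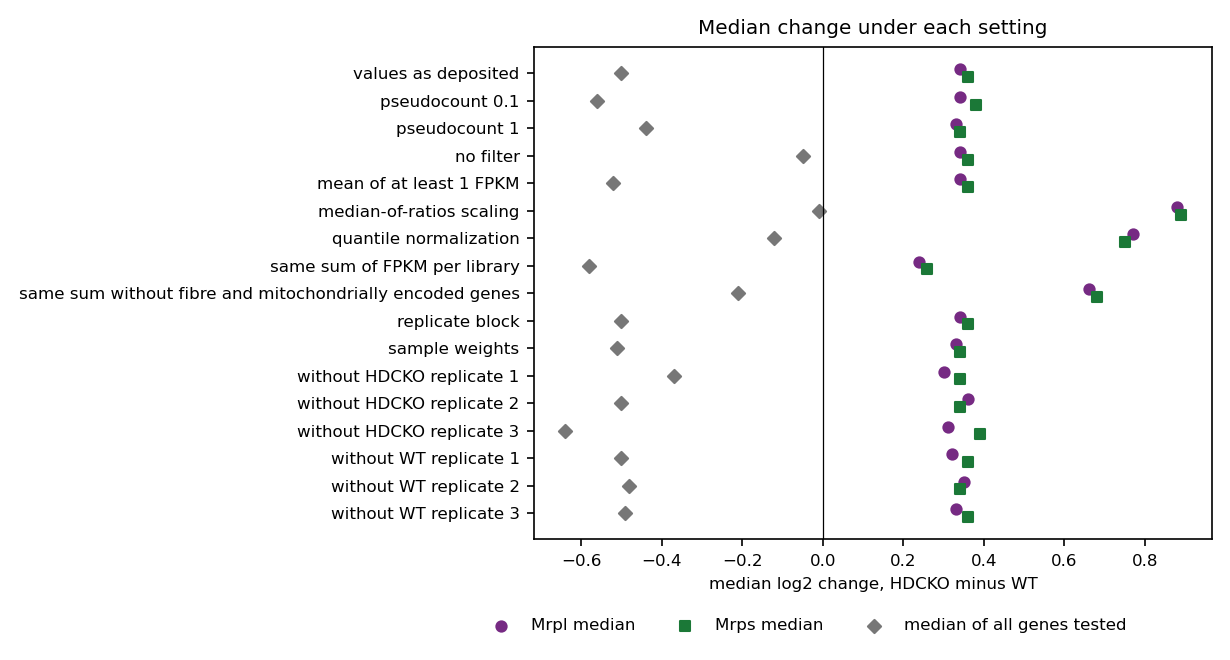
Median log2 change, HDCKO minus WT, of the Mrpl genes (circles), the Mrps genes (squares) and all genes tested (diamonds) under each of 17 settings. The circles run from 0.24 to 0.88 and the squares from 0.26 to 0.89, right of the diamond in every setting.

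Among large subunit genes the increases were led by Mrpl42, a protein with no relative in the bacterial ribosome. Mrpl42 (chromosome 10, 95316559 to 95346150, minus strand, GRCm39) had 253, 229 and 158 FPKM in HDCKO 1, 2 and 3, against 64.7, 57.6 and 65.3 FPKM in WT 1, 2 and 3. Every HDCKO library was above every WT library, and the mean was 3.41 times as high, a log2 change of 1.74 (SE 0.22, limma adjusted p = 0.00213). Mrpl15, a relative of a bacterial large subunit protein (chromosome 1, 4843429 to 4855972, minus), had 15.7, 15.5 and 9.97 FPKM in HDCKO muscle, against 5.81, 5.68 and 5.05 FPKM in WT muscle. Its groups did not overlap either, and the log2 change was 1.22 (SE 0.21, adjusted p = 0.00578). Mrpl37, found only in mitochondria (chromosome 4, 106912099 to 106924560, minus), had 49.7, 42.3 and 36.4 FPKM, against 19.9, 19.8 and 18.5 FPKM in WT, a log2 change of 1.11 (SE 0.16, adjusted p = 0.00325). Mrpl53, also specific to mitochondria (chromosome 6, 83085887 to 83088572, plus), had 85.2, 69.5 and 57.8 FPKM, against 33.2, 37.8 and 30.1 FPKM in WT, a log2 change of 1.05 (SE 0.19, adjusted p = 0.00691). In these genes HDCKO 1 was highest and HDCKO 3 was the HDCKO library nearest to WT. Mrpl51, of the same kind and on the same chromosome (125168764 to 125173232, plus), had 57.7, 53.9 and 43.4 FPKM, against 26.3, 25.2 and 27.5 FPKM in WT, a log2 change of 0.95 (adjusted p = 0.00507).

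Among Mrps genes the largest increase was in a gene whose product is no longer counted as a ribosomal protein. Mrps36 (chromosome 13, 100872116 to 100881584, minus) is known as an adaptor of the 2-oxoglutarate dehydrogenase complex of the citric acid cycle, a complex its annotation in the deposited table also names. It had 85.4, 80.3 and 51.2 FPKM in HDCKO 1, 2 and 3, against 27.5, 23.8 and 26.9 FPKM in WT 1, 2 and 3, with a log2 change of 1.42 (SE 0.23, adjusted p = 0.00460). Mrps21, a relative of a bacterial small subunit protein (chromosome 3, 95766069 to 95778879, minus), followed with 159, 142 and 109 FPKM, against 69.4, 80.4 and 70.4 FPKM in WT, a log2 change of 0.88 (SE 0.19, adjusted p = 0.0113; 0.0523 without HDCKO 2). Mrps31, which is specific to mitochondria, had 15.9, 17.4 and 12.5 FPKM, against 7.99, 8.23 and 7.88 FPKM in WT (log2 change 0.87, adjusted p = 0.00706). Mrps23, also specific to mitochondria, had 36.9, 33.1 and 28.7 FPKM, against 19.2, 18.9 and 19.8 FPKM in WT (log2 change 0.75, adjusted p = 0.00792). None of these 4 genes had an HDCKO library within the WT range.

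Mrps15, a relative of a bacterial protein, averaged 46.4 ± 3.53 FPKM in HDCKO muscle and 29.2 ± 1.96 FPKM in WT muscle (SD, n = 3 each) without overlap (log2 change 0.66, limma adjusted p = 0.00970; 0.0513 without HDCKO 2). Mrps34, a mitochondrial protein needed for a stable small subunit, had 42.0, 42.4 and 34.7 FPKM, against 25.6, 25.3 and 23.1 FPKM in WT (log2 change 0.67, adjusted p = 0.0110; 0.0546 without HDCKO 2). Mrps34 is uncertain because it shares 62.6% of its exon bases with Mapk8ip3 and 47.8% with Nme3, which lies on the same strand.

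The genes that fell were 4 Mrpl genes and 1 Mrps gene, and Mrpl52, specific to mitochondria, fell most. Mrpl52 (chromosome 14, 54664360 to 54668593, plus) had 44.9, 43.0 and 57.9 FPKM in HDCKO 1, 2 and 3, against 141, 132 and 114 FPKM in WT 1, 2 and 3. All HDCKO libraries lay below all WT libraries, and the log2 change was -1.41 (SE 0.18, limma adjusted p = 0.00230), with a range of -1.56 to -0.86 over the settings. Mrps6, a relative of a bacterial small subunit protein (chromosome 16, 91854965 to 91909592, plus), had 14.9, 13.6 and 16.6 FPKM, against 25.3, 28.7 and 26.6 FPKM in WT, a log2 change of -0.82 (SE 0.14, adjusted p = 0.00547). It shares 404 exon bases, 12.6% of its own, on the same strand with Slc5a3, whose log2 change was -0.93, and its value with median-of-ratios scaling was -0.28 (adjusted p = 0.197). Mrpl20, a relative of a bacterial protein (chromosome 4, 155887335 to 155894435, plus), had 24.9, 27.0 and 28.8 FPKM, against 45.3, 44.0 and 43.9 FPKM in WT, a log2 change of -0.71 (SE 0.13, adjusted p = 0.00638; -0.17 and 0.381 with median-of-ratios scaling).

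The other 2 decreases depended on the scaling. Mrpl17, a relative of a bacterial protein, had 6.36, 6.83 and 7.49 FPKM in HDCKO muscle, against 10.2, 10.8 and 9.28 FPKM in WT muscle. Its log2 change was -0.52 (adjusted p = 0.0205) as deposited and 0.01 (adjusted p = 0.969) with median-of-ratios scaling, and the call was lost without HDCKO 2 (adjusted p = 0.0751), WT 1 (0.0758), WT 2 (0.0723) or WT 3 (0.0519). Mrpl40, specific to mitochondria, had 12.5, 12.3 and 13.5 FPKM, against 17.7, 18.3 and 19.2 FPKM in WT. Its log2 change was -0.51 (adjusted p = 0.0150) as deposited and 0.03 (adjusted p = 0.900) with median-of-ratios scaling, and the call was lost without HDCKO 2 (adjusted p = 0.0680), WT 1 (0.0535) or WT 3 (0.0621).

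**Figure D3:**
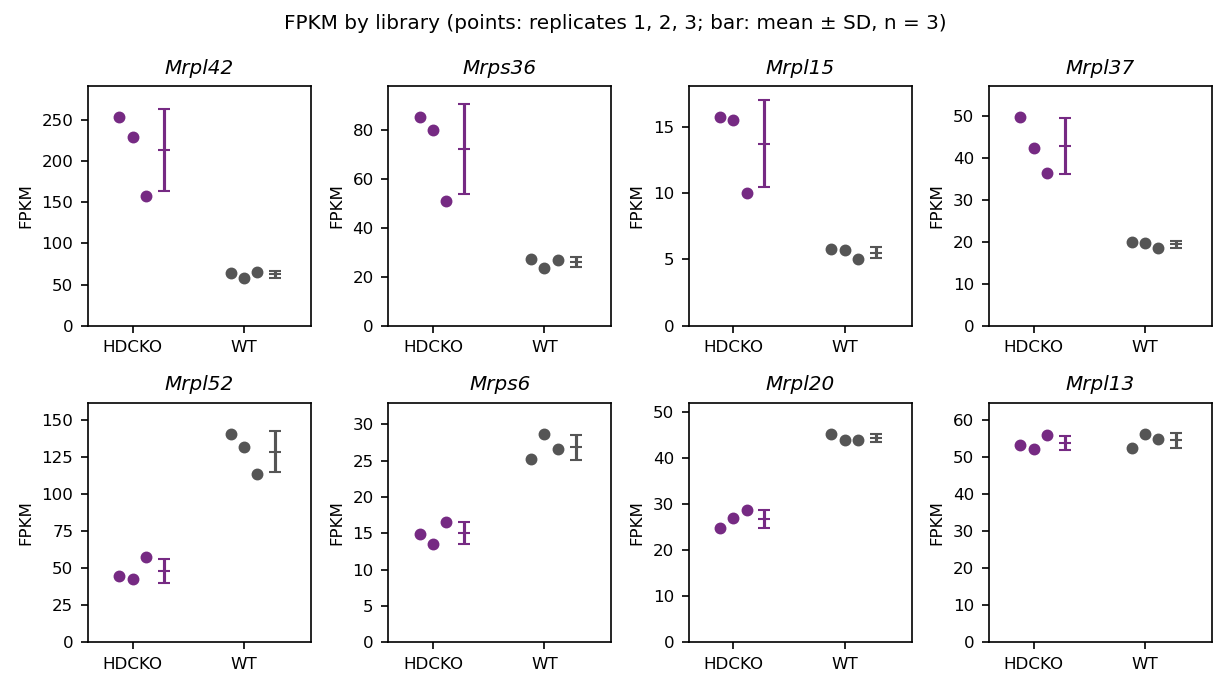
FPKM in each library for 4 genes that were higher in HDCKO muscle (top), 3 that were lower (bottom left) and Mrpl13, which was not called (bottom right); points are replicates 1, 2 and 3 and bars are the mean ± SD (n = 3). The HDCKO points for Mrpl42 lie at 253, 229 and 158 FPKM, above WT points of 64.7, 57.6 and 65.3 FPKM, while those for Mrpl13 lie at 53.1, 52.2 and 55.9 FPKM beside WT points of 52.3, 56.2 and 54.9 FPKM.

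Several genes with roles beyond the core of the ribosome changed little or were near the threshold. Mrpl12, which forms the stalk that brings translation factors to the large subunit, had 110, 104 and 78.9 FPKM in HDCKO muscle, against 63.5, 68.2 and 65.4 FPKM in WT muscle (log2 change 0.56, adjusted p = 0.0336), and was called in only 10 of 17 settings. Leaving out any library other than HDCKO 3 took its adjusted p to between 0.0786 and 0.121. Mrpl58, a hydrolase that frees stalled ribosomes, had 8.27, 9.16 and 10.1 FPKM, against 9.37, 9.03 and 9.39 FPKM in WT (log2 change -0.02, adjusted p = 0.917). Its groups overlapped as deposited, and the change was 0.51 (adjusted p = 0.0223) with median-of-ratios scaling. Mrpl41, also known as a BCL2-interacting protein, had a log2 change of 0.09 (adjusted p = 0.614).

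Of the 3 relatives of bacterial protein S18, 1 was called higher and 2 were not called. Mrps18a, which structures place in the large subunit, had 53.5, 50.8 and 41.5 FPKM in HDCKO muscle, against 32.9, 33.4 and 32.1 FPKM in WT muscle (log2 change 0.55, adjusted p = 0.0211), a call lost without HDCKO 2 (adjusted p = 0.0861), WT 1 (0.0709), WT 2 (0.0602) or WT 3 (0.0732). Mrps18b had 16.5, 15.2 and 12.4 FPKM, against 12.1, 12.3 and 12.1 FPKM in WT (log2 change 0.26, adjusted p = 0.175; called without HDCKO 3, adjusted p = 0.0228). Mrps18c had 47.2, 44.0 and 58.4 FPKM, against 59.4, 58.3 and 61.4 FPKM in WT (log2 change -0.27, adjusted p = 0.173; called lower without HDCKO 3, adjusted p = 0.0203). The sign turned with median-of-ratios scaling, to 0.28 (adjusted p = 0.153), and the gene shares 76.9% of its exon bases with Abraxas1. The differences between the 3 were not tested. Mrps30, also a large subunit protein by structure in spite of its name, had 19.3, 21.2 and 17.6 FPKM, against 15.4, 13.1 and 15.0 FPKM in WT (log2 change 0.40, adjusted p = 0.0463, called in 10 of 17 settings; the p rose to between 0.0852 and 0.163 without any 1 library other than HDCKO 3).

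With genes placed by structure (Mrps18a and Mrps30 in the large subunit and Mrps36 left out, a grouping added after the data were seen), 24 of 51 large subunit genes were higher and 4 lower, with a median log2 change of 0.36. Of 26 small subunit genes, 10 were higher and 1 lower, with a median of 0.32. The shares of all genes tested were 17.8% higher and 42.6% lower, and the median -0.50. In the large subunit 14 of 31 genes with a bacterial relative were higher and 2 lower (median 0.41), and 10 of 20 specific to mitochondria were higher and 2 lower (median 0.35). In the small subunit the counts were 6 higher and 1 lower of 17 (median 0.29) and 4 higher and 0 lower of 9 (median 0.48).

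Levels differed much more among the genes than between the groups. The highest mean level over the 6 libraries was 40.1 times the lowest, and no gene fell under 3.05 FPKM in any library. The order of the 78 genes was alike in both groups (Spearman rho 0.92 between HDCKO and WT mean FPKM; genes are not independent replicates), and a gene's level said little about its change (rho 0.13). Mrpl33, a relative of a bacterial protein, had the highest mean level, with 149, 135 and 117 FPKM in HDCKO muscle, against 167, 184 and 166 FPKM in WT muscle. Its groups did not overlap, but the change was not called (log2 -0.37, adjusted p = 0.0912) and its sign turned with median-of-ratios scaling, to 0.19 (adjusted p = 0.567). Mrps16, a relative of a bacterial protein, had 50.7, 54.0 and 45.8 FPKM, against 52.2, 42.7 and 49.7 FPKM in WT (log2 change 0.06, adjusted p = 0.740).

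At the low end, Mrps25, which is specific to mitochondria, had 3.82, 3.97 and 3.66 FPKM in HDCKO muscle, against 3.58, 3.89 and 3.99 FPKM in WT muscle (log2 change -0.00, adjusted p = 0.996), and 47.9% of its exon bases are shared with Nr2c2. Mrpl4, a relative of a bacterial protein, had 4.35, 4.42 and 4.33 FPKM, against 3.75, 3.81 and 4.38 FPKM in WT (log2 change 0.12, adjusted p = 0.445), and Mrpl19, another such relative, had 4.14, 4.26 and 4.55 FPKM, against 5.11, 4.48 and 5.24 FPKM in WT (log2 change -0.17, adjusted p = 0.294; 0.33 and 0.130 with median-of-ratios scaling). Mrps35, specific to mitochondria, stood at the threshold, with 5.11, 5.88 and 4.27 FPKM, against 3.66, 3.05 and 3.78 FPKM in WT (log2 change 0.48, SE 0.17, adjusted p = 0.0500, not called). Of the 38 genes not called, 13 had all HDCKO libraries above all WT libraries and 3 had them all below.

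Summed over genes, the messages for mitochondrial ribosomal proteins took a larger share of the FPKM in HDCKO muscle. The Mrpl genes summed to 1676, 1591 and 1392 FPKM in HDCKO 1, 2 and 3, against 1273, 1269 and 1230 FPKM in WT 1, 2 and 3. The Mrps genes summed to 929, 895 and 780 FPKM, against 638, 625 and 640 FPKM in WT. Both sums were highest in HDCKO 1, and neither overlapped between groups. Together the 78 genes made up 0.545% ± 0.0304 of all FPKM in HDCKO libraries and 0.458% ± 0.00585 in WT libraries (SD, n = 3 each).

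The ratio of the Mrpl sum to the Mrps sum was 1.79 ± 0.0139 in HDCKO muscle and 1.98 ± 0.0553 in WT muscle (SD, n = 3 each), a difference of -0.19, with no overlap between groups. This difference depended on which genes were counted. The Mrps sum holds Mrps36, not counted as a ribosomal protein, and Mrps18a and Mrps30, of the large subunit by structure. By structure, the large and small subunit sums were 1.24 and 1.3 times as high in HDCKO as in WT. By symbol, the Mrpl and Mrps sums were 1.24 and 1.37 times as high. Among Mrpl genes, 2 abundant ones also moved the ratio. Without Mrpl52 the ratios were 1.76, 1.73 and 1.71 in HDCKO, against 1.77, 1.82 and 1.74 in WT, and the groups overlapped. Without Mrpl52 and Mrpl33 they were 1.59, 1.58 and 1.56 in HDCKO, against 1.51, 1.52 and 1.48 in WT, now with every HDCKO library above every WT library. Both genes were left out after their values were seen. An exact permutation test of 3 libraries against 3 cannot give a two-sided p under 0.1, so none is given for the sums.

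The spread between libraries was small in WT muscle and larger in HDCKO muscle. The median coefficient of variation of the 78 genes was 9.32% in HDCKO and 6.0% in WT, against 27.0% and 11.7% over all genes tested. HDCKO 3 was the HDCKO library nearest to WT in 32 of the 35 genes called higher and in all 5 called lower; over all genes this held for 73.6% of those called higher and 91.4% of those called lower. HDCKO 1 was farthest from WT in 23 of the 35. The muscle fibre markers summed to 76003, 65405 and 42034 FPKM in HDCKO 1, 2 and 3, the same order as the Mrpl and Mrps sums, and their part in the differences between the HDCKO libraries was not tested.

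The genes lay on 17 chromosomes, with the most, 11, on chromosome 11. Many stand head to head with another gene: 29 of 78 (37.2%) had a protein-coding gene starting on the other strand within 1000 bases, against 1775 of 12479 protein-coding genes tested (14.2%). Of these partners, 27 were tested, and 3 were called higher and 12 lower (17.8% and 42.6% of all genes tested), with a median log2 change of -0.47, against 0.16 for the ribosomal genes paired with them. Only 1 of the 27 pairs was called in the same direction, Mrpl40 and Hira, which both fell. In 4 pairs the ribosomal gene rose and the partner fell: Mrpl44 with Wdfy1, Mrpl48 with Rab6a, Mrpl51 with Ncapd2 and Mrps7 with Gga3. In some pairs the partner serves mitochondria too. Mrpl36 had a log2 change of -0.10 beside 1.56 for Ndufs6, a complex I subunit, and Mrpl47 had 0.50 (adjusted p = 0.0650) beside 2.17 for Ndufb5, another complex I subunit. Mrpl46 and Mrps11, which face each other, had 0.34 and -0.00, neither called, and count as partners of each other. These pairs were picked by function after the list was seen.

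Exon bases were shared with another gene of the table in 44 of the 78 genes, 4 of them on the same strand, and in 13 genes at least 25% of the bases were shared with a single gene. The sources used here do not say whether reads were counted by strand, so values of those 13 are uncertain. The largest overlaps included 94.4% of Mrpl54 with Matk and 48.1% of Mrps7 with Mif4gd. Mrpl35, called higher, shares 31.5% of its exon bases with Reep1, on the other strand. Reep1 averaged 20.9 FPKM in HDCKO muscle and 1.25 FPKM in WT muscle (log2 change 3.62). Its part in the Mrpl35 value was not tested. Mrpl42, Mrpl52, Mrps36 and Mrpl15 shared no exon bases with another gene of the table.

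The proteins of the mitochondrial ribosome that carry other symbols were called in both directions as deposited. Of 5, 2 were called higher (17.8% of all genes tested) and 1 lower (42.6%), with a median log2 change of 0.05. The share called lower was below that of all genes tested, but the list is short. With median-of-ratios scaling 3 were higher and 0 lower (27.0% and 25.2% of all genes tested), with a median of 0.60. Chchd1, a small subunit protein, had 126, 113 and 76.8 FPKM in HDCKO muscle, against 57.4, 54.5 and 51.9 FPKM in WT muscle (log2 change 0.91, adjusted p = 0.0147; 0.0616 without HDCKO 2 and 0.0554 without WT 3), and Ptcd3, a small subunit protein of the pentatricopeptide repeat family, had 17.9, 15.9 and 15.8 FPKM, against 10.7, 9.95 and 10.7 FPKM in WT (log2 change 0.64, adjusted p = 0.00903). Dap3, a GTP-binding protein of the small subunit, fell to 6.94, 6.74 and 7.76 FPKM in HDCKO, against 9.88, 10.0 and 9.76 FPKM in WT (log2 change -0.44, adjusted p = 0.0255), but had 0.08 with median-of-ratios scaling and was called in 8 of 17 settings, in none that left out a library other than HDCKO 3.

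Among factors that build the ribosome and run translation on it, more were called higher than lower. Of 28 assembly factors, 11 were higher (39.3%, against 17.8% of all genes tested) and 1 lower (3.57%, against 42.6%), with a median log2 change of 0.24. With median-of-ratios scaling 18 were higher and 0 lower (27.0% and 25.2% of all genes tested), with a median of 0.74. Sample weights gave 13 higher and 8 lower (23.1% and 58.1%). Without HDCKO 2 or WT 1 only 3 of the 28 were called higher (13.2% and 13.9% of all genes tested). Without WT 2 there were 4 (14.9%) and without WT 3 there were 5 (14.1%). Without HDCKO 2, WT 1 or WT 2, the share of the 28 was below that of all genes tested. Without HDCKO 3, 5 were called lower (55.1%). Ybey, an endoribonuclease, had 1.73, 1.51 and 1.22 FPKM in HDCKO muscle, against 0.450, 0.429 and 0.572 FPKM in WT muscle (log2 change 1.01, adjusted p = 0.00531). Mrm3, which methylates the large ribosomal RNA, had a log2 change of 0.91 (adjusted p = 0.00414), and Mtg1, a GTPase of large subunit assembly, had 0.80 (adjusted p = 0.00935). Ddx28, an RNA helicase of large subunit assembly, was the 1 called lower (log2 change -0.59, adjusted p = 0.0238), in 10 of 17 settings.

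Of 19 translation factors, 11 were higher (57.9%, against 17.8% of all genes tested) and 1 lower (5.26%, against 42.6%), with a median log2 change of 0.54. With median-of-ratios scaling 13 were higher and 0 lower (27.0% and 25.2% of all genes tested), with a median of 1.06 (0.93 with quantile normalization). Sample weights gave 11 higher and 3 lower (23.1% and 58.1%). Without HDCKO 2, 6 were called higher and 0 lower (13.2% and 18.9%). Without any 1 WT library 7 were called higher (13.9%, 14.9% and 14.1% without WT 1, 2 and 3). Without HDCKO 3, 3 were called lower (55.1%). Mss51, a muscle protein named for a yeast activator of cytochrome oxidase translation, had by far the largest change, with 78.2, 70.8 and 45.0 FPKM in HDCKO muscle, against 1.26, 1.29 and 1.07 FPKM in WT muscle (log2 change 5.22, adjusted p = 1.47e-04). Taco1, an activator of translation of a cytochrome oxidase subunit, had 26.7, 22.7 and 16.2 FPKM, against 5.15, 4.78 and 4.28 FPKM in WT (log2 change 2.07, adjusted p = 0.00105). Gfm2, which recycles ribosomes, Lrpprc, which stabilizes mitochondrial messenger RNAs, and Gfm1, an elongation factor, had log2 changes of 1.35, 1.16 and 1.03, with adjusted p of 0.00211, 0.00306 and 0.00396. Pde12, which trims the tails of mitochondrial messenger RNAs, was the 1 that fell (log2 change -0.74, adjusted p = 0.0125; 0.0511 without HDCKO 2).

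Of the 12 listed regulators of mitochondrial genes, 6 were higher (17.8% of all genes tested) and 6 lower (42.6% of all genes tested). Against these shares the higher calls stood out, while the share of lower calls was near that of all genes tested. Ppargc1a, the coactivator PGC-1 alpha, had 2.61, 1.90 and 1.33 FPKM in HDCKO muscle, against 0.00963, 0.0269 and 0.0456 FPKM in WT muscle (log2 change 2.18, adjusted p = 0.00109), and Tfam, which packs and transcribes mitochondrial DNA, had 12, 12.7 and 13 FPKM, against 8.49, 8.35 and 7.95 FPKM in WT (log2 change 0.58, adjusted p = 0.0103; 0.0500 without HDCKO 2). The factors whose letters were searched in the promoters were lower: Nrf1 had a log2 change of -0.68 (adjusted p = 0.0389), Gabpa -0.64 (adjusted p = 0.0253) and Yy1 -0.63 (adjusted p = 0.0222), called in 7, 8 and 10 of 17 settings and not with median-of-ratios scaling. Myc, a growth regulator, fell to 3.79, 7.02 and 14.7 FPKM in HDCKO, against 39.1, 34.2 and 36.2 FPKM in WT (log2 change -2.23, adjusted p = 0.00886). With median-of-ratios scaling 6 regulators were higher and 2 lower (27.0% and 25.2% of all genes tested). Without HDCKO 2 the counts were 3 and 2 (13.2% and 18.9%), and without WT 1 they were 4 and 2 (13.9% and 22.4%). There were 2 lower without WT 2 (23.5%), and 3 lower without HDCKO 1 (33.3%) or WT 3 (21.1%). Of 13 proteins taken as measures of mitochondrial mass, 7 were higher (53.8%, against 17.8% of all genes tested) and 3 lower (23.1%, against 42.6%). Their median log2 change was 0.56. All HDCKO libraries lay above all WT libraries for 7 of them (21.2% of all genes tested) and below for 6 (51.4%). Vdac1, a channel of the outer membrane, had a log2 change of 2.17 and Cs, citrate synthase, had 1.58. The 3 called lower were Tomm40 (-0.80), Tomm22 (-0.63) and Hspd1 (-0.55). The 3 lower calls fell to 0 without HDCKO 2, WT 1 or WT 3 (18.9%, 22.4% and 21.1% of all genes tested). They fell to 1 without HDCKO 1 or WT 2 (33.3% and 23.5%) and were 5 without HDCKO 3 (55.1%). With median-of-ratios scaling 7 were higher and 0 lower (27.0% and 25.2%), with a median of 1.12. Sample weights gave 7 higher and 6 lower (23.1% and 58.1%).

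The respiratory chain, whose mitochondrially encoded subunits this ribosome makes, changed by more than its ribosome. The list of 87 nuclear respiratory chain genes includes those of ATP synthase. Of the 87, 81 were higher (93.1%, against 17.8% of all genes tested) and 2 lower (2.3%, against 42.6%), with a median log2 change of 1.59. All 13 mitochondrially encoded messenger RNAs were higher, with a median of 2.11. The difference between these medians and that of the ribosomal genes was not tested. Nuclear respiratory chain genes summed to 30354, 27339 and 17658 FPKM in HDCKO 1, 2 and 3, against 8833, 8194 and 8307 FPKM in WT 1, 2 and 3, which is 2.97 times as high on average, while the Mrpl and Mrps sums were 1.24 and 1.37 times as high. Their sum was 11.7, 11 and 8.13 times that of the ribosomal genes in HDCKO, against 4.62, 4.33 and 4.44 times in WT. Mitochondrial messenger RNAs were 32.2, 27.1 and 23.2 times the ribosomal genes in HDCKO, against 8.66, 7.73 and 8.22 times in WT. Neither ratio overlapped between groups.

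The proteins of the cytosolic ribosome, which carries out translation outside mitochondria, ran the other way. Of 78 cytosolic ribosomal protein genes, 0 were higher (17.8% of all genes tested) and 55 lower (70.5%, against 42.6%). Their median log2 change was -0.85, against -0.50 for all genes tested. Their sum was 19839, 28271 and 38531 FPKM in HDCKO 1, 2 and 3, against 54187, 48336 and 48766 FPKM in WT 1, 2 and 3. The sum was 0.573 times as high on average and did not overlap between groups. The count of 55 moved a good deal. It was 1, 2, 3, 3 and 18 without HDCKO 2, WT 1, WT 2, WT 3 and HDCKO 1. Of all genes tested, 18.9%, 22.4%, 23.5%, 21.1% and 33.3% were lower in these fits. It was 76 without HDCKO 3 (55.1% of all genes tested) and 5 with no filter on low values (21.1%). Median-of-ratios scaling gave 5 (25.2%), with a median of -0.29 for the cytosolic ribosomal genes. With fibre and mitochondrially encoded genes taken out of the scaling it was 4 (27.4%). In each of these but the fit without HDCKO 3, the share of the 78 was below that of all genes tested. The sum was 7.62, 11.4 and 17.7 times that of the mitochondrial ribosomal genes in HDCKO, against 28.4, 25.5 and 26.1 times in WT.

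**Figure D4:**
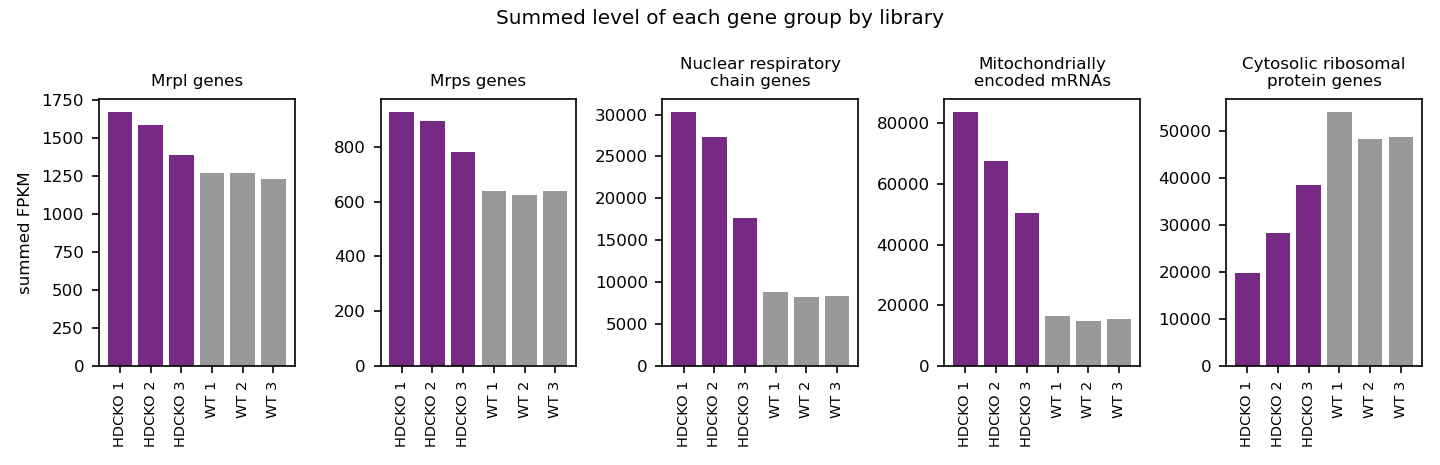
Summed FPKM of 5 gene groups in each library, with HDCKO 1, 2 and 3 left of WT 1, 2 and 3 and 1 bar a library. The Mrpl sums of 1676, 1591 and 1392 FPKM in HDCKO stand above 1273, 1269 and 1230 FPKM in WT, and the cytosolic ribosomal sums of 19839, 28271 and 38531 FPKM in HDCKO below 54187, 48336 and 48766 FPKM in WT.

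**Figure D5:**
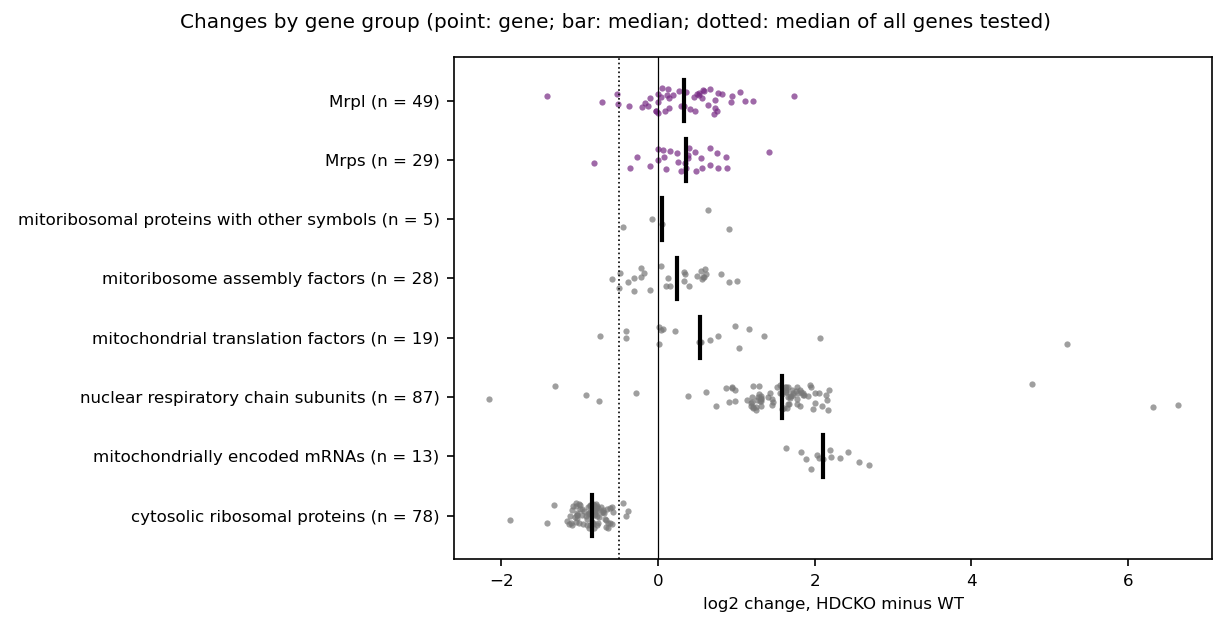
Log2 change, HDCKO minus WT, of each gene (points) in 8 gene groups, with the group's median (thick bar), 0 (solid line) and the median of all genes tested, -0.50 (dotted line). The Mrpl and Mrps medians of 0.34 and 0.36 lie between those of the cytosolic ribosomal proteins, -0.85, and the nuclear respiratory chain, 1.59.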

How the data were processed

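RNA-seq of total RNA from hind limb muscle gave a deposited table of FPKM values for 25572 genes in 6 libraries (3 HDCKO, 3 WT). The submitters' processing notes name FastQC 0.11.9 for read quality, alignment with HISAT2 2.1.0 and STAR 2.7.11b to GRCm39 and counting with HTSeq 0.11.2; the authors converted the counts to FPKM, by gene length and depth, and ran DESeq2 1.22.2. Which aligner gave these values, strand and the treatment of reads with several matches: not given in the sources used here. FPKM is relative: a gene falls if others take more of the library.

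The members and lists were chosen with earlier results of these data known. Values were taken as log2(FPKM + 0.5) for the 13288 genes whose mean over the 6 libraries reached 0.5 FPKM and tested with limma 3.58.1 (trend, R 4.3.3; no covariates), HDCKO minus WT, with Benjamini-Hochberg adjustment over all genes tested and a threshold of 0.05. Named members were the 5 with the smallest p among called genes of each subunit and direction, and those with the highest and lowest levels. Members with the 3 largest and 3 smallest changes or with known further roles were named too. From some related lists, genes among the 4 with the smallest p were named. The respiratory chain, mitochondrial messenger RNA and cytosolic ribosomal lists are described by counts, medians and sums. Other genes named beside these were chosen after their values were seen. The steps between low FPKM values gave a rough depth of 29500000 to 37600000 fragments a library; without counts, no counting intervals are given. Total FPKM was 423967 to 454887 in HDCKO and 405521 to 420035 in WT. Coordinates are from GENCODE release M39 (all 78 members matched), promoters from RefSeq on GRCm38.p6; no coordinates were converted. P-values cover the spread between these mice. The fit was tested on simulated data. In all, 16 alternatives were run (pseudocounts of 0.1 and 1, no filter, a mean of at least 1 FPKM, 4 scalings, a replicate block, sample weights and 6 with 1 library left out).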

Additional observations from a re-analysis of the deposited data

How the results depend on the processing

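The median change was positive for Mrpl and Mrps genes in all 17 settings, and no member was called in both directions. With 1 library left out, the members called higher numbered 14 to 43 and lower 3 to 7 (Mrpl 10 to 25 and 2 to 4, Mrps 4 to 18 and 1 to 3), the medians were 0.30 to 0.36 for Mrpl and 0.34 to 0.39 for Mrps, and their difference -0.08 to 0.02, against -0.02 with all 6. Median-of-ratios scaling gave 58 higher and 1 lower (Mrpl 37 and 1, Mrps 21 and 0; medians 0.88 and 0.89), and quantile normalization 56 and 1 (Mrpl 35 and 1, Mrps 21 and 0; medians 0.77 and 0.75, difference 0.02). The same sum per library gave 27 higher and 6 lower (Mrpl 17 and 5, Mrps 10 and 1), with medians of 0.24 and 0.26. The same sum without fibre and mitochondrially encoded genes gave medians of 0.66 and 0.68. There 20 Mrps genes were higher (23.7% of all genes tested) and 3 members lower (27.4%), 2 of them Mrpl. Sample weights gave 9 members lower (11.5%, against 58.1% of all genes tested), 3 of them Mrps. Genes placed by structure gave a difference between the medians of 0.03. Signs turned for 9 named members. With median-of-ratios scaling the values were 0.01 for Mrpl17, 0.03 for Mrpl40, 0.19 for Mrpl33, 0.33 for Mrpl19, 0.51 for Mrpl58, 0.28 for Mrps18c and 0.49 for Mrps25; with quantile normalization 0.22 for Mrpl19, 0.43 for Mrpl58, 0.11 for Mrps18c and 0.38 for Mrps25; and with the same sum without fibre and mitochondrially encoded genes 0.13 for Mrpl19, 0.30 for Mrpl58, 0.06 for Mrps18c and 0.30 for Mrps25. Mrpl41 and Mrps16 turned to -0.00 and -0.04 with the same sum per library, and Mrps25 to 0.06 with sample weights. With 1 library left out, Mrpl41 ran from -0.01 to 0.18, Mrpl58 ran from -0.08 to 0.05, Mrps16 ran from -0.03 to 0.12 and Mrps25 ran from -0.04 to 0.03. Over the 29 named members, 141 of the values with a library left out kept direction and call, 24 lost the call, 3 gained it and 6 turned sign; with other settings 243 kept both, 14 lost the call, 15 gained it and 18 turned sign. The cause was not tested, except that leaving out a library lowers the number of samples.

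The labels number the mice 1 to 3 in both groups. Libraries with the same number had deviation correlations of 0.122, 0.0666 and 0.138, and those with different numbers had -0.182 to 0.112. HDCKO 1 and HDCKO 3 correlated best with the WT library of the same number, and HDCKO 2 with WT 1 (0.112). These values do not settle whether the numbers are pairs, and the main fit did not use them. A fit with the replicate block called 25 members higher and 4 lower (15.7% and 38.3% of all genes tested), with 8 Mrps genes higher. Depth limits little here, as no member fell under 3.05 FPKM, but 3 libraries a group leave calls open to single libraries.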
